A study of Xenopus laevis with 6 samples.

Results

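The endothelial genes described here are the copies of 10 gene symbols that mark the inner lining of blood vessels, namely kdr, flt1, flt4, tie1, tek, pecam1, egfl7, tal1, lmo2 and aplnr. Members were taken from the gene count table by symbol alone, without the ending .L or .S that names the copy on the long or the short subgenome of this allotetraploid frog. This gave 16 gene copies of 9 symbols among 42638 genes. The gene kdr was counted as kdr.S and tie1 as tie1.L, the other 7 symbols had a .L and a .S copy, and flt4 was not analysed here. All samples were wild-type and untreated Xenopus laevis. The tested samples were basal Xenobots, motile constructs that form without sculpting from ectoderm cut out of stage 9 embryos (animal caps), kept for 7 days at 14 °C in 0.75X MMR (a Ringer's salt solution). Each of the 3 Xenobot libraries came from 50 pooled Xenobots. They were compared with age-matched whole embryos, kept for 7 days at 14 °C in 0.1X MMR until stage 35, in 3 libraries of 10 pooled embryos each. Medium and group changed together and cannot be told apart, and a Xenobot is built from a piece of ectoderm while the embryo holds all organs.

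In vertebrate embryos, vessels and the first blood cells arise from mesoderm, in part from shared precursors. Vascular endothelial growth factors act on endothelial cells through the receptor tyrosine kinases Kdr, Flt1 and Flt4, angiopoietins act through the receptor Tek with its partner Tie1, and apelin peptides act through the G protein-coupled receptor Aplnr. Tal1 and Lmo2 are transcriptional regulators that work in a common complex in blood and endothelial precursors. Ectoderm is not a usual source of endothelium, and animal caps form it only after induction.

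The libraries held 13597538 to 20325075 estimated counts in Xenobots and 17533207 to 22225123 in embryos, of which the 16 endothelial genes took 100 to 640 counts per Xenobot library and 1830 to 2154 per embryo library. Levels are given in CPM (counts scaled to a common library total) after TMM scaling. Differences were tested with limma-voom over 26752 genes, and a gene was called where the Benjamini-Hochberg adjusted p was under 0.05 and the log2 fold change (Xenobot over embryo) was beyond 2 in either direction. Copies of a gene share sequence and reads that fit both were divided by estimation, which makes a single copy more uncertain than the sum of both.

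The endothelial genes were lower in Xenobots, with levels that ran from 0.915% of the embryo mean (tal1.S) to 42.2% (pecam1.S), averaged over the Xenobot pools. All 16 copies had lower values in all 3 Xenobot pools than in any embryo pool, which held for 38.9% of all tested genes, and all 16 had a limma adjusted p under 0.05 in that direction, against 36.2% of all tested genes. With the fold threshold, 8 of 16 copies were called lower, against 20.5% of all tested genes, and 0 were called higher, against 5.75%. The 8 were both copies of tal1, lmo2 and flt1, with kdr.S and pecam1.L. Of these, the 6 copies of tal1, lmo2 and flt1 entered the test through their embryo levels alone, a limit set out below. Without Xenobot pool 2, 13 of the 16 were called lower. The median log2 fold change was -2.30 over the 16 copies and -0.07 over all tested genes. The fold threshold itself divides the called copies (0.915 to 16.5%) from the uncalled ones (27.8 to 42.2%), and single pools crossed this line. The called kdr.S stood at 20.4 and 21.4% in Xenobot pools 1 and 2, and the uncalled copies stood at 6.85 to 17.5% in Xenobot pool 3. In bulk samples, fewer cells of a type and less RNA per cell cannot be told apart.

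All 16 copies passed the expression filter of more than 0.6 CPM in at least 3 libraries, but 6 of them, the copies of tal1, lmo2 and flt1, passed through the embryo libraries alone. For these 6, which make up most of the 8 calls, a lower level in Xenobots was partly set by the filter. The count of 8, the statements on all 16 copies and the median of -2.30 are therefore no support for the members as a group. Of the other 10 copies, 2 were called (kdr.S and pecam1.L), and tek.L and tek.S lay just inside the fold threshold. All 10 had a limma adjusted p under 0.05 and a lower level in Xenobots. The 20.5% of all tested genes still includes genes that passed through the embryo libraries alone, so it is no like measure for these 10.

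**Figure D1:**
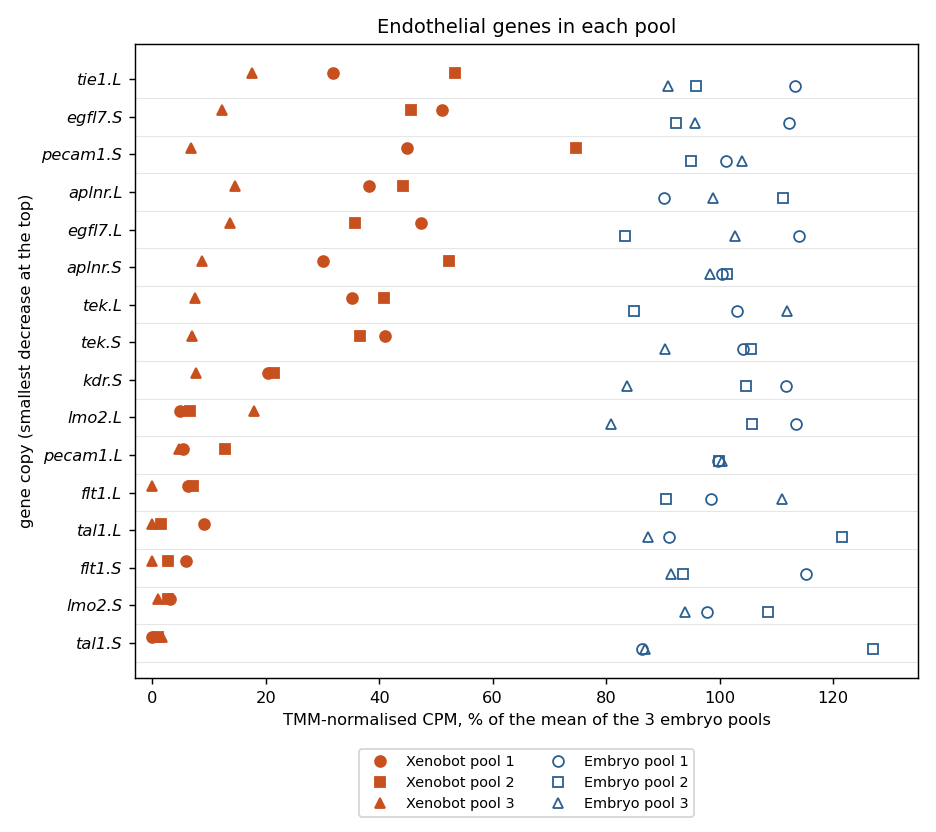
TMM-normalised CPM of each endothelial gene copy in each pool, as a percentage of the mean of the 3 embryo pools (filled symbols, Xenobot pools; open symbols, embryo pools; symbol shape gives the pool number). The Xenobot values lie left of the embryo values for all 16 copies, and pool 3 is the lowest Xenobot pool for 14 of them.

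Of the receptor genes for vascular endothelial growth factor, kdr.S and both copies of flt1 were called lower, and flt4 was not analysed. The gene kdr.S (assembly Xenopus_laevis_v10.1, chromosome 1S, 29407685 to 29437231), which encodes the main signalling receptor for Vegfa, had 0.894, 0.939 and 0.336 CPM in Xenobot pools 1, 2 and 3, against 4.90, 4.59 and 3.67 CPM in embryo pools 1, 2 and 3. Its level was thus higher in every embryo pool than in any Xenobot pool, and its log2 fold change was -2.59 (adjusted p = 0.000168 in limma, SE 0.37). The call was lost in the deposited surrogate-variable-adjusted values, where the log2 fold change was -1.63.

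The gene flt1, whose product binds Vegfa tightly and is known mainly to limit its action on Kdr, was much closer to absence. The copy flt1.L (chromosome 2L, 164337590 to 164384576) had 3, 5 and 0 counts in Xenobot pools 1, 2 and 3, against 68, 54 and 77 counts in the embryo pools. The copy flt1.S (chromosome 2S, 146980277 to 147021115) had 3, 2 and 0 counts in the Xenobot pools, against 84, 59 and 67 counts in the embryo pools. Neither copy had a count in Xenobot pool 3. From the summed counts, the level per library was 19.4-fold lower in Xenobots for flt1.L (exact Poisson 95% interval of the Xenobot counts 9.82 to 44.8) and 32.7-fold lower for flt1.S (14.0 to 101). The fitted log2 fold changes, which at such counts depend on the prior count of the fit, were -4.55 (SE 0.56) and -5.02 (SE 0.53), with limma adjusted p-values of 5.8e-05 and 1.95e-05.

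The angiopoietin receptor genes were lower in Xenobots by the adjusted p but were not called. The gene tek, whose product binds angiopoietins and steadies vessels, had as tek.L (chromosome 1L, 132230336 to 132288640) 1.58, 1.83 and 0.336 CPM in Xenobot pools 1, 2 and 3, against 4.63, 3.81 and 5.02 CPM in embryo pools 1, 2 and 3. The copy tek.S (chromosome 1S, 111658528 to 111714263) had 2.47, 2.21 and 0.420 CPM in the Xenobot pools, against 6.27, 6.36 and 5.44 CPM in the embryo pools. Both copies were lowest in Xenobot pool 3, with 4 and 5 counts there. The log2 fold changes were -1.997 for tek.L (adjusted p = 0.00306 in limma, SE 0.45) and -1.9996 for tek.S (adjusted p = 0.00269 in limma, SE 0.44), just inside the fold threshold. Under the alternative settings tek.L was called in 7 of 15 fits and tek.S in 8 of 15.

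The gene tie1.L (chromosome 4L, 83163206 to 83192818), which encodes the partner receptor of Tek, had 1.37, 2.30 and 0.756 CPM in Xenobot pools 1, 2 and 3, against 4.88, 4.13 and 3.92 CPM in embryo pools 1, 2 and 3. The log2 fold change was -1.54 (adjusted p = 0.00261 in limma, SE 0.34), the smallest fitted decrease among the 16 copies, with egfl7.S close by at -1.55. It was -0.35 (limma adjusted p = 0.188) in the deposited adjusted values, and -2.01 without Xenobot pool 2, which then brought a call.

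The product of the adhesion gene pecam1 lies at the junctions between endothelial cells and is also found on leukocytes and platelets. The copy pecam1.L (chromosome 9_10L, 54499572 to 54521223) had 7, 24 and 5 counts in Xenobot pools 1, 2 and 3, against 187, 162 and 189 counts in embryo pools 1, 2 and 3. The copy pecam1.S (chromosome 9_10S, 46773001 to 46800323) had 16, 39 and 2 counts in the Xenobot pools, against 53, 43 and 54.8 counts in the embryo pools. The .L copy thus held more counts than the .S copy in each embryo pool, and fewer in Xenobot pools 1 and 2. The log2 fold change was -3.69 for pecam1.L (adjusted p = 7.91e-06 in limma, SE 0.34) and -1.56 for pecam1.S (adjusted p = 0.0346 in limma, SE 0.57), and the difference between the copies was not tested. The adjusted p of pecam1.S passed 0.05 in several alternatives, up to 0.105 in the deposited adjusted values. Its log2 fold change was -0.73 without Xenobot pool 3 and -2.29 without Xenobot pool 2.

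The gene egfl7 encodes a matrix protein that endothelial cells secrete around forming vessels. The copy egfl7.S (chromosome 8S, 29401008 to 29418799) had 6.12, 5.45 and 1.47 CPM in Xenobot pools 1, 2 and 3, against 13.4, 11.04 and 11.4 CPM in embryo pools 1, 2 and 3. The copy egfl7.L (chromosome 8L, 4501624 to 4522982) had 4.74, 3.57 and 1.38 CPM in the Xenobot pools, against 11.4, 8.33 and 10.3 CPM in the embryo pools. Xenobot pools 1 and 2 were thus near each other, and pool 3 was several times lower in both copies. The log2 fold changes were -1.55 for egfl7.S (adjusted p = 0.00341 in limma, SE 0.36) and -1.69 for egfl7.L (adjusted p = 0.00114 in limma, SE 0.33), and neither copy was called in any of 15 alternative fits.

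The apelin receptor gene aplnr, known in frogs as a marker of early vessels, was likewise lowest in Xenobot pool 3. The copy aplnr.L (chromosome 1L, 155744413 to 155746646) had 5.32, 6.15 and 2.03 CPM in Xenobot pools 1, 2 and 3, against 12.6, 15.5 and 13.8 CPM in embryo pools 1, 2 and 3. The copy aplnr.S (chromosome 1S, 132757823 to 132760018) had 2.24, 3.90 and 0.655 CPM in the Xenobot pools, against 7.49, 7.56 and 7.34 CPM in the embryo pools. The log2 fold changes were -1.63 for aplnr.L (adjusted p = 0.00075 in limma, SE 0.30) and -1.83 for aplnr.S (adjusted p = 0.00312 in limma, SE 0.42). Neither copy was called, while aplnr.S was at -2.52 and called without Xenobot pool 2, and at -2.03 and called with total-count scaling.

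The regulators tal1 and lmo2 were nearly absent from Xenobots in all pools. The gene tal1 encodes a basic helix-loop-helix factor needed for the first blood cells. The copy tal1.S (chromosome 4S, 73901695 to 73911833) had 0, 1 and 1 counts in Xenobot pools 1, 2 and 3, against 88, 112 and 89 counts in the embryo pools. The copy tal1.L (chromosome 4L, 88992539 to 89003013) had 4, 1 and 0 counts in the Xenobot pools, against 58, 67 and 56 counts in the embryo pools. From the summed counts, tal1.S was 112-fold lower in Xenobots (exact Poisson 95% interval 31.1 to 928) and tal1.L 28.2-fold lower (12.1 to 86.7).

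The gene lmo2 encodes a LIM-domain protein that joins Tal1 to its partners without binding DNA itself. The copy lmo2.S (chromosome 4S, 12578126 to 12584249) had 4, 5 and 1 counts in Xenobot pools 1, 2 and 3, against 180, 173 and 174 counts in embryo pools 1, 2 and 3. The copy lmo2.L (chromosome 4L, 11378170 to 11383324) had 1, 2 and 3 counts in the Xenobot pools, against 34, 27.4 and 24.3 counts in the embryo pools. From the summed counts, lmo2.S was 40.9-fold lower in Xenobots (22.3 to 85.4) and lmo2.L 11.1-fold lower (5.11 to 30.3). The fitted log2 fold changes of the tal1 and lmo2 copies ran from -6.11 (tal1.S, limma adjusted p = 5.42e-06) to -3.21 (lmo2.L, limma adjusted p = 0.0002), and the call of lmo2.L was lost in the deposited adjusted values (log2 fold change -1.41).

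**Figure D2:**
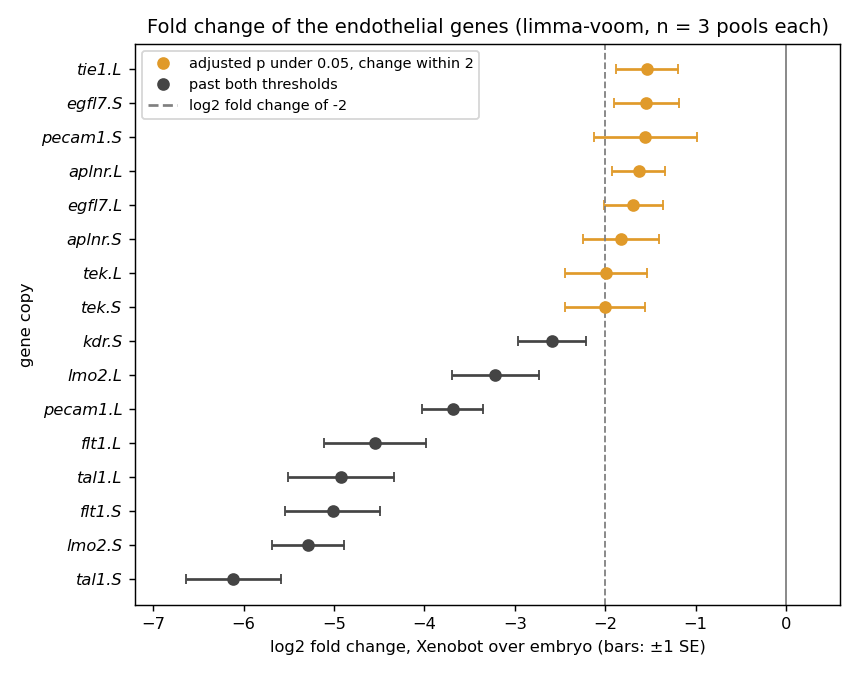
Log2 fold change of each endothelial gene copy, Xenobot over embryo, with bars of 1 SE from limma-voom (n = 3 pools each) and a dashed line at the fold threshold of -2. The copies of tal1 (-6.11 and -4.92), flt1 and lmo2.S lie farthest from 0, tek.S and tek.L lie on the threshold, and tie1.L (-1.54) lies nearest to 0.

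With copies summed by symbol, tal1 stood at 1.95% of its embryo mean in Xenobots, lmo2 at 3.36%, flt1 at 3.72%, pecam1 at 15.2%, kdr at 16.5%, tek at 28.1%, aplnr at 31.6%, tie1 at 34.3% and egfl7 at 34.5%. The share of counts that fell on the .L copy was compared for the symbols with the most counts. It was 61.2 to 75.6% in Xenobot pools and 62.7 to 67.2% in embryo pools for aplnr, and 39.6 to 48.4% in Xenobot pools and 43.0 to 47.3% in embryo pools for egfl7. For tek it was 39.0, 45.3 and 44.4% in Xenobot pools 1, 2 and 3, with 9 counts in pool 3, and 37.5 to 48.0% in embryo pools. For pecam1 it was 30.4, 38.1 and 71.4% in Xenobot pools 1, 2 and 3, from 23, 63 and 7 counts, and 77.5 to 79.0% in embryo pools. The share was thus lower in Xenobot pools 1 and 2, while the 7 counts of pool 3 are too few to compare. The symbols flt1, lmo2 and tal1 had at most 7 counts in a Xenobot pool, and kdr and tie1 had 1 copy each. Differences in these shares were not tested. These are shares of counts and were not corrected for the length of the copies.

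The Xenobot pools differed among themselves in these genes far more than the embryo pools did. The summed level of the 16 copies was 27.4, 30.1 and 8.39 CPM in Xenobot pools 1, 2 and 3, against 101, 99.0 and 94.9 CPM in embryo pools 1, 2 and 3. Xenobot pool 3 thus stood at 8.55% of the embryo mean, and pools 1 and 2 at 27.9 and 30.6%. The summed counts behind these values were 398 in Xenobot pool 1 (exact Poisson 95% interval 360 to 439), 640 in pool 2 (591 to 692) and 100 in pool 3 (81.4 to 122), where intervals cover counting error only. Pool 3 was the lowest Xenobot pool for 14 of the 16 copies, including all 8 that were not called. This held for 36.2% of all tested genes and for 36.4% of those called lower. With its copies summed, lmo2 showed no such dip. It stood at 3.43, 3.28 and 3.35% of its embryo mean in Xenobot pools 1, 2 and 3. These values come from 5, 7 and 4 counts, too few to tell a dip from none. The copy lmo2.S alone was lowest in pool 3, at 3.19, 2.73 and 0.975% in pools 1, 2 and 3. The coefficient of variation between pools was larger in Xenobots than in embryos for all 16 copies, and for 67.5% of all tested genes counted in both groups. Counting error alone can raise this coefficient for the copies of tal1, lmo2 and flt1, where single Xenobot pools held 0 to 5 counts. These 6 copies therefore cannot show whether Xenobot pools varied more. Over the 8 copies that were not called, the coefficient was 48.4 to 80.7% in Xenobots and 1.49 to 15.6% in embryos. Counting error can add to some of these as well, since Xenobot pool 3 held 2 counts of pecam1.S, 4 of tek.L and 5 of tek.S.

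Other marker lists were read in the same pools. The 21 tested skeletal muscle marker genes were called lower without exception, against 20.5% of all tested genes. Their summed level was 1.54, 3.09 and 0.388% of the embryo mean in Xenobot pools 1, 2 and 3. Pool 3 was the lowest Xenobot pool for 17 of these 21, against 36.2% of all tested genes. The muscle markers thus shared the low value in Xenobot pool 3 with the endothelial genes, at a much lower share of the embryo level. The order of the other pools was less alike. Pool 2 was the highest and pool 3 the lowest Xenobot pool for 17 of 21 muscle copies and for 8 of 16 endothelial copies. The summed level of epidermal markers showed no such dip, and pool 3 was the lowest Xenobot pool for 6 of the 18 copies. Of these 18, 12 were called higher in Xenobots, against 5.75% of all tested genes, while 2 had a limma adjusted p under 0.05 and a lower level. The summed level of the list was 399.8, 442 and 438% of the embryo mean in pools 1, 2 and 3. The part of muscle or other tissue in the difference between pools was not tested.

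**Figure D3:**
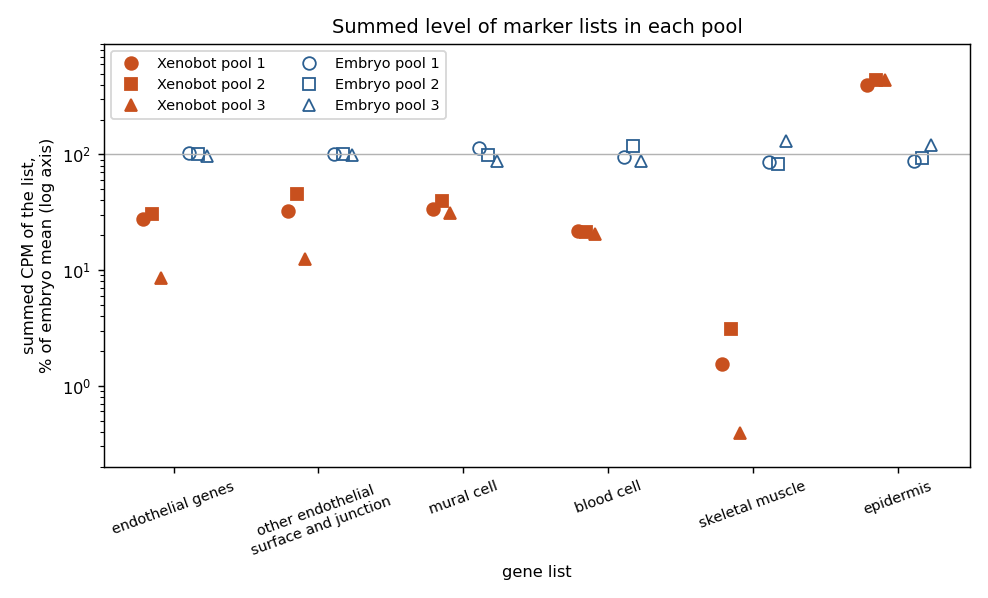
Summed CPM of 6 marker lists in each pool, as a percentage of the embryo mean on a log axis (filled symbols, Xenobot pools; open symbols, embryo pools; symbol shape gives the pool number). The endothelial genes (27.9, 30.6 and 8.55%) and the other endothelial surface genes (32.4, 45.7 and 12.5%) are lowest in Xenobot pool 3, as skeletal muscle is (0.388%). The mural sum differs less between pools (33.6, 39.3 and 31.3%). The median over the tested mural copies, not drawn, was 13.7, 17.8 and 7.84% in Xenobot pools 1, 2 and 3. The epidermal and blood lists are level between pools, and the blood sum comes largely from slc4a1.S.

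Other endothelial surface and junction genes were mostly lower in Xenobots, by varying amounts. Of 25 tested copies, 12 were called lower, against 20.5% of all tested genes, and 0 higher, against 5.75%. The median log2 fold change was -1.99, and 23 had a limma adjusted p under 0.05 and a lower level in Xenobots, against 36.2%. The melanoma cell adhesion gene mcam.S (log2 fold change -4.39), the semaphorin receptor gene plxnd1.L (-3.43), the sphingosine phosphate receptor gene s1pr1.S (-3.35) and nos3.L (-3.12), which encodes endothelial nitric oxide synthase, fell most. The cadherin of endothelial junctions, cdh5, had as cdh5.L 11.4, 13.0 and 2.35 CPM in Xenobot pools 1, 2 and 3, against 23.8, 22.8 and 23.4 CPM in embryo pools 1, 2 and 3. Its log2 fold change was -1.54 (limma adjusted p = 0.00901), and that of cdh5.S was -2.46 (limma adjusted p = 0.00356). The endothelial genes cdh5, kdr, tek and pecam1 were thus counted in every Xenobot pool. In pool 3, however, kdr.S and tek.L had 4 counts, tek.S 5, cdh5.S 4 and pecam1.S 2. The copies of flt1, tal1.L and sox17a.L had no count there. Whether endothelial cells were present in each pool was not tested.

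The von Willebrand factor gene vwf.L, a product of endothelium and platelets, had 22.5, 40.9 and 8.06 CPM in Xenobot pools 1, 2 and 3, against 27.2, 25.2 and 25.0 CPM in embryo pools 1, 2 and 3. The Xenobot values lay on both sides of the embryo values, and the log2 fold change was -0.30 (adjusted p = 0.554 in limma, SE 0.43). The scavenger receptor gene stab2.L, of sinusoidal and lymphatic endothelium, was at -1.96 and calcrl.L, part of the adrenomedullin receptor, at -1.09, and neither was called. The notch ligand gene dll4.L was at -0.35 (limma adjusted p = 0.163). Pool 3 was the lowest Xenobot pool for 21 of the 25 copies, against 36.2% of all tested genes. The exceptions were dll4.L, esam.L (-0.74), thsd1.L (-0.84) and acvrl1.L (-1.03). With 1 pool left out, 7 to 18 of the 25 were called lower, with the 7 found without Xenobot pool 3.

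Endothelial transcription factors were mixed. Of 31 tested copies, 16 were called lower, against 20.5% of all tested genes, and 2 higher, against 5.75%. The median log2 fold change was -2.23. Some of the copies, prox1.L among them, passed the expression filter through the embryo libraries alone, so their direction was partly set by the filter. The largest decreases were in prox1.L (-5.26), which directs lymphatic fate, in mef2c.S (-5.15) and mef2c.L (-4.80), which also serve muscle, and in nr2f2.L (-4.65), a regulator of venous fate. The ETS factor gene fli1 fell in both copies, with 3.81, 5.05 and 0.504 CPM for fli1.L in Xenobot pools 1, 2 and 3, against 33.0, 33.1 and 29.0 CPM in embryo pools 1, 2 and 3 (log2 fold change -3.60, limma adjusted p = 0.000141). Another, erg.L, was at -2.33 (limma adjusted p = 0.00162).

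The SoxF genes, which act in endothelial identity, differed between members. The gene sox7.L had 23.9, 21.3 and 19.7 CPM in Xenobot pools 1, 2 and 3, against 2.99, 2.44 and 3.63 CPM in embryo pools 1, 2 and 3, and rose by 2.83 on the log2 scale (adjusted p = 1.27e-06 in limma, SE 0.19). Its homeolog sox7.S rose by 2.02 (adjusted p = 9.8e-07 in limma, SE 0.12), just past the fold threshold. The copies sox17a.L and sox17a.S were called lower, at -3.004 and -2.23. The copy sox18.L was at -1.27 (limma adjusted p = 0.0107) and was not called. The copy sox18.S, at -0.83 (adjusted p = 0.217 in limma, SE 0.56), did not pass the test. Among the copies that were not called were ets1.L (-0.14, limma adjusted p = 0.402) and ets2.L, at 1.63 (limma adjusted p = 2.73e-06). Also not called was ets1.S, at -1.88 (limma adjusted p = 7.64e-06), so the ets1 copies differed. The early endothelial regulator etv2.S had 1.37, 1.32 and 0.252 CPM in Xenobot pools 1, 2 and 3, against 1.82, 1.79 and 1.91 CPM in embryo pools 1, 2 and 3 (log2 fold change -1.09, limma adjusted p = 0.0747).

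The ligands and co-receptors of these pathways were examined next. Of 17 tested copies, 11 were called lower, against 20.5% of all tested genes, and 2 higher, against 5.75%. The median log2 fold change was -3.18. The angpt1 copies, vegfb.L and vegfc.S passed the expression filter through the embryo libraries alone, and angpt4.S through the Xenobot libraries alone. For these copies the direction was partly set by the filter. The vascular endothelial growth factor gene vegfa.L had 6.59, 8.06 and 6.59 CPM in Xenobot pools 1, 2 and 3, against 16.7, 19.1 and 18.4 CPM in embryo pools 1, 2 and 3. Its log2 fold change was -1.32 (adjusted p = 2e-05 in limma, SE 0.14) and that of vegfa.S was -1.85 (limma adjusted p = 4e-05), so that neither was called. The level of vegfa.L was the same in Xenobot pools 1 and 3.

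The other vascular endothelial growth factors went in different directions. The lymphatic growth factor gene vegfc fell in both copies, by 3.36 for vegfc.L on the log2 scale, and with 5, 1 and 1 counts of vegfc.S in the Xenobot pools against 22, 32 and 28 counts in the embryo pools. The gene vegfb.L had 0, 2 and 0 counts in the Xenobot pools, against 16, 16 and 17 counts in the embryo pools, and was 19.1-fold lower from the summed counts (5.28 to 157). The gene vegfd.L had 2.96, 7.05 and 3.02 CPM in Xenobot pools 1, 2 and 3, against 1.12, 2.00 and 1.91 CPM in embryo pools 1, 2 and 3, a log2 fold change of 1.42 (adjusted p = 0.0132 in limma, SE 0.42) that was not called.

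Of the angiopoietins, angpt1, the known activating ligand of Tek, was almost absent from Xenobots. For angpt1.L there were 0, 4 and 0 counts in Xenobot pools 1, 2 and 3, against 91.4, 62.9 and 86.8 counts in embryo pools 1, 2 and 3, and angpt1.S had 0, 2 and 0 counts, against 79.6, 59.1 and 48.2 counts. From the summed counts, angpt1.L was 46.9-fold lower in Xenobots (18.3 to 172) and angpt1.S 72.7-fold lower (20.1 to 601). These intervals cover counting error only, and all Xenobot counts of both copies came from pool 2. The gene angpt4 went the other way. The copy angpt4.L had 39.8, 36.2 and 22.2 CPM in the Xenobot pools, against 3.69, 4.598 and 5.26 CPM in the embryo pools, a rise of 2.84 on the log2 scale (adjusted p = 9.76e-06 in limma, SE 0.27), and angpt4.S rose by 3.62 (adjusted p = 3.27e-05 in limma, SE 0.41). The gene angpt2, whose product can oppose Angpt1, had a log2 fold change of -1.74 for angpt2.L, not called, and fell by 3.84 for angpt2.S.

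The apelin gene apln.L fell by 4.44 on the log2 scale, with 1, 15 and 5 counts in Xenobot pools 1, 2 and 3, against 166, 133 and 151 counts in embryo pools 1, 2 and 3, while apln.S was below the expression filter, with 0, 1 and 0 counts in the Xenobot pools against 8, 5 and 5 in the embryo pools. The neuropilin genes, whose products are co-receptors for these growth factors and for semaphorins, fell too. The copy nrp2.L had 9.59, 9.89 and 2.24 CPM in Xenobot pools 1, 2 and 3, against 136, 146 and 139 CPM in embryo pools 1, 2 and 3 (log2 fold change -4.39, SE 0.37, limma adjusted p = 4.88e-06). The copies nrp2.S and nrp1.L were at -4.46 and -2.86. The phosphatase gene ptprb.L, whose product acts on Tek, was at -2.94. All 4 of these copies were lowest in Xenobot pool 3.

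**Figure D4:**
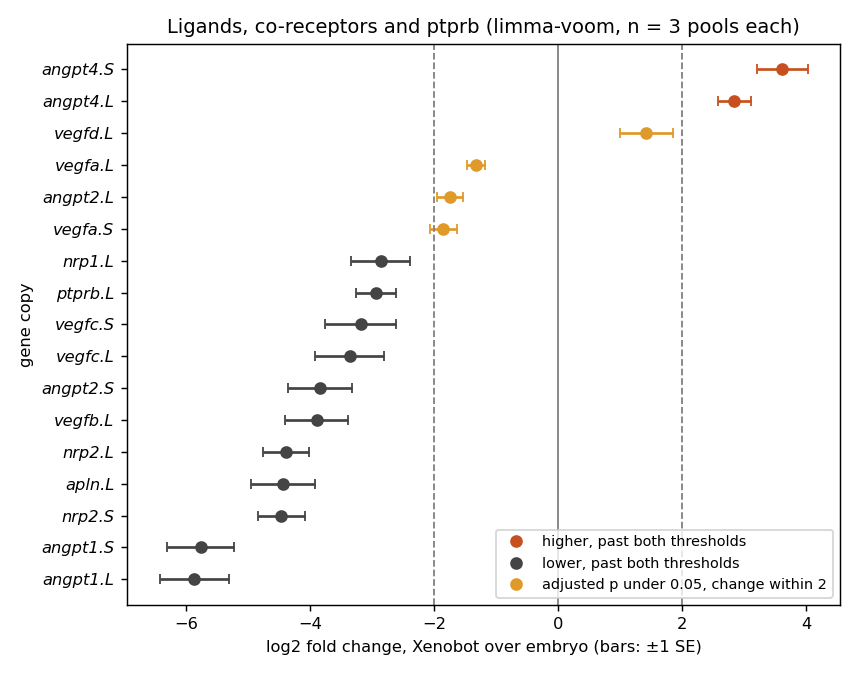
Log2 fold change of the tested ligand and co-receptor genes and of the phosphatase gene ptprb.L, Xenobot over embryo, with bars of 1 SE from limma-voom (n = 3 pools each) and dashed lines at the fold thresholds of -2 and 2. The angpt4 copies (3.62 and 2.84) lie to the right of the upper line, the vegfa copies (-1.32 and -1.85) between the lines, and the angpt1 copies (-5.87 and -5.76) at the far left.

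Partners of Tal1 and Lmo2 were lower in Xenobots by widely varying amounts. Of 13 tested copies, 12 had a limma adjusted p under 0.05 and a lower level, against 36.2% of all tested genes. With the fold threshold, 7 were called lower, against 20.5%, and 0 higher, against 5.75%. The median log2 fold change was -2.04. The copies cbfa2t3.L, gata1.S and gata1.L passed the expression filter through the embryo libraries alone, so their direction was partly set by the filter. The corepressor gene cbfa2t3.L fell by 5.33 on the log2 scale, with 1 to 3 counts in a Xenobot pool, and the red cell factor gene gata1 by 4.99 for gata1.S and 3.51 for gata1.L on the log2 scale, with 0 to 4 counts of each gata1 copy in a Xenobot pool. The E protein genes tcf4.S (-2.87), tcf4.L (-2.58) and tcf12.L (-2.04) were called lower. The E protein genes tcf3.S (-0.64) and tcf3.L (-0.92) and the LIM-binding gene ldb1.L (-1.11) were not called, although their limma adjusted p was at most 0.000152, and runx1.L, a blood stem cell factor also used elsewhere, was at 1.26 (limma adjusted p = 2.77e-05).

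Markers of the neighbouring cell types gave the following levels. Of 29 tested blood cell copies, 20 were called lower, against 20.5% of all tested genes, and 0 higher, against 5.75%. The median log2 fold change was -4.39, or -4.26 with the 2 genes at 0 in every Xenobot pool set to their bounds. The globin gene hbd.S had 0 counts in every Xenobot pool and was at least 599-fold lower (floor of 3 counts per library), and hba4.S had 0, 1 and 0 counts, against 2889, 3413 and 2684 counts in the embryo pools. The leukocyte gene ptprc.L also had 0 counts in every Xenobot pool, and spi1.L had 1, 1 and 0. These globin and leukocyte copies passed the expression filter through the embryo libraries alone, so their direction was partly set by the filter. The summed level of the blood list was 21.7, 21.3 and 20.5% of the embryo mean in Xenobot pools 1, 2 and 3. It came largely from slc4a1.S (120 CPM in Xenobots, 36.5 in embryos), a gene not confined to blood cells, so this sum is not a measure of blood. Mural cells, which wrap vessels, had 10 of 13 copies called lower and 0 higher, against 20.5 and 5.75% of all tested genes. Their median was -2.53, led by smooth muscle myosin (myh11.L, -5.38) and the pericyte gene rgs5.L (-4.34), while notch3.L (-0.74) was not called.

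Genes of oxygen sensing, the pathway that controls vegfa in many tissues, were not lower. Of 13 tested copies, 0 were called lower, against 20.5% of all tested genes, and 2 higher, against 5.75%. The median log2 fold change was 0.67, and 8 had a limma adjusted p under 0.05 and a higher level in Xenobots, against 29.6%. The gene epas1.S, which encodes a hypoxia-inducible factor known from endothelium, had 148, 122 and 138 CPM in Xenobot pools 1, 2 and 3, against 23.1, 19.0 and 22.8 CPM in embryo pools 1, 2 and 3, a rise of 2.65 on the log2 scale (adjusted p = 3.82e-07 in limma, SE 0.12). The gene vhl.S, whose product marks these factors for breakdown, rose by 2.79 (adjusted p = 2.89e-06 in limma, SE 0.21). The copies epas1.L (1.46) and hif1a.L (0.15, limma adjusted p = 0.172) were not called.

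As a description of likeness, the mean log2 CPM of the 16 copies was correlated with that of every other tested gene over the 6 libraries, 3 of each group. The highest Pearson correlations among named genes with at least 1 CPM in embryos were those of nrp2.L (0.9996), nrp2.S (0.9996), tada3.S (0.9995), cacna2d1.S (0.9995) and clic5.S (0.9995). These share the 2 levels of the groups and the low value in Xenobot pool 3, and a correlation of 0.9 was reached by 6759 tested genes (25.3%), and of 0.99 by 588 (2.20%). The size of the change was not part of the measure, and tada3.S had a log2 fold change of -0.995 while nrp2.S had -4.46.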

How the data were processed

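Total RNA of 3 Xenobot and 3 embryo pools was sequenced with strand kept and rRNA removed. Reads went through fastp, STAR (NCBI's Xenopus laevis assembly 10.1) and RSEM, whose expected counts per gene the authors deposited. They also deposited log2 CPM values of 28009 genes, from voom with TMM factors, after removal of surrogate-variable effects, which can take out differences between pools. These were used only as an alternative. Versions of these tools are not given in the sources used here.

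Groups and pool numbers came from sample titles, and 0 columns of other samples were present. Genes with more than 0.6 CPM in at least 3 libraries were kept, which is the rule the study states. In every list, a gene that passed through the libraries of 1 group alone had its direction partly set by this filter. It left 26752 genes here, fewer than the 28009 of the deposited adjusted table, so a step or its input differed, and the cause was not tested. TMM (edgeR 4.0.16), voom and limma 3.58.1 in R 4.3.3 followed, with group as the only term and unrounded counts. For DESeq2 1.42.0 and edgeR's quasi-likelihood test, whole numbers were made by rounding. Calls needed a Benjamini-Hochberg adjusted p under 0.05 over all genes and a log2 fold change beyond 2. Where Xenobot pools held at most 5 counts, a ratio of summed counts per summed effective library is given with an exact Poisson 95% interval. Such an interval covers the counting error of the Xenobot sum only and leaves out the spread between pools. With 0 counts in every pool, a floor of 3 counts per library gives a bound. The smallest exact two-sided permutation p for 3 against 3 pools is 0.1. The limma p-values weigh the group difference against the spread between these pools, with variances moderated across genes.

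The members and gene lists were chosen with earlier results of these data known. Named genes are all members, all ligands and co-receptors, up to 4 called genes in each direction per list by fold change, up to 4 uncalled genes per list by level, and the 5 genes most correlated with the members. The text gives examples from these. Of the others named, cdh5.S, erg.L, fli1.L, etv2, sox17a, sox18, dll4.L and esam.L were picked after their values were seen. The same holds for thsd1.L, acvrl1.L, tcf4, tcf12.L, ptprc.L, spi1.L, runx1.L and kdrl. Positions are those of the RefSeq annotation of assembly version 10.1, which held all 16 members. Levels and counts were not corrected for exon length. Alternatives were other tests, scalings, filters, a replicate block, the deposited adjusted values, summed copies and each pool left out.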

Additional observations from a re-analysis of the deposited data

How the results depend on the processing

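The endothelial genes called lower numbered 8 of 16 in edgeR's quasi-likelihood test and in DESeq2, 10 with RLE and upper-quartile scaling, 11 with total-count scaling, 9 with no filter, and 6 in the deposited adjusted values. Leaving out 1 pool at a time gave 8 to 13, with the 13 calls found without Xenobot pool 2 and 8 without Xenobot pool 3. The median log2 fold change of the members was -2.69 to -1.79 with 1 pool left out, with the value nearest to 0 found without Xenobot pool 3, and -1.44 in the deposited adjusted values. Total-count scaling moved the median of all genes from -0.07 to -0.21. With copies summed, 5 of 9 members, 3 of 7 Tal1 and Lmo2 partners and 9 of 17 endothelial transcription factors were called lower, with 1 transcription factor and 1 ligand called higher, 7 of 11 epidermal genes called higher and all 13 muscle genes called lower, since fewer features were tested. The transcription factors called higher numbered 1 in place of 2 in DESeq2, with RLE, upper-quartile and total-count scaling, at a mean above 1 CPM, in the adjusted values, and without Xenobot pool 1 or embryo pool 1 (1 to 2 with 1 pool left out). Surface and junction genes called lower numbered 7 to 18 with 1 pool left out.

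Pools of the same number deviated from their group means with correlations of 0.0568, 0.0531 and 0.0105. Xenobot pools 1 and 2 correlated best with the embryo pool of their own number, and pool 3 did not. Whether pools of the same number share a batch was not tested. The fit with a replicate block called 8 members lower (median log2 fold change -2.17), and under it pecam1.S had a limma adjusted p of 0.0742. Members with few counts in Xenobots have fold changes limited by depth.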

Other observations

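A further receptor gene of the same family, kdrl, was read after its values were seen. The copy kdrl.L (chromosome 8L, 37763599 to 37889713) had 4.54, 4.74 and 1.18 CPM in Xenobot pools 1, 2 and 3, against 21.0, 21.7 and 21.9 CPM in embryo pools 1, 2 and 3, with a log2 fold change of -2.70 (adjusted p = 6.9e-05 in limma, SE 0.34). It too was lowest in Xenobot pool 3. The copy kdrl.S had 11, 11 and 7 counts in the Xenobot pools, against 15.03, 14 and 19.04 counts in the embryo pools, and a log2 fold change of -0.33 (limma adjusted p = 0.435).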
